A study of Mus musculus with 4 samples.

Results

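Transcripts of the AMPA, kainate and delta glutamate receptors were examined in the CA1 field of the hippocampus. The members are 9 listed genes (Gria1 to Gria4, Grik1, Grik2, Grik4, Grik5 and Grid1), chosen with earlier results of these data known. Their probe sets were taken by gene symbol with no filter on level. Of these, 8 genes had 14 probe sets, among 8252 genes named by a single symbol on the array. Grik4 was not analysed here, since no probe set was matched to it. All samples were total RNA from CA1 hippocampus. The donors were controls: young male mice of the C57BL/6J strain, handled by the experimenter and otherwise untreated. What sets the arrays apart is the time at which RNA was taken, counted from the last shock of separate mice that are not analysed here: 1, 2, 4 or 6 hr, with 1 array each. The sources used here do not say how many mice went into an array, so the spread between arrays mixes hour, animals and technical error, and a p-value covers that mixed spread alone.

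Glutamate is the main excitatory transmitter of the hippocampus, and its ionotropic receptors are channels built of 4 subunits. AMPA receptors, encoded by the Gria genes, carry most of the fast current at CA1 synapses. Their Gria2 subunit, once its transcript is edited, keeps calcium out of the channel. Kainate receptors, encoded by the Grik genes, sit on both sides of the synapse and tune transmitter release and excitability, and the Grik4 and Grik5 subunits form channels only together with Grik1, Grik2 or Grik3. The delta subunit Grid1 is a synapse-organising protein that binds cerebellins and, through them, presynaptic neurexins.

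The values are the authors' deposited intensities, linear and already scaled to a common level, which hides any shift common to most genes. Median intensity ran from 173 at 2 hr to 204 at 1 and 4 hr, and 23.4% to 28.3% of values lay under 54.7, the 25th percentile, used here as a floor before log2 values were taken. Markers of CA1 pyramidal neurons were present: all 5 of the 8 listed genes that had a probe set were above the floor on every array, with a summed intensity of 6884 to 8754. Markers of neighbouring fields and of other cells were present too, with sums of 2477 to 3928 for CA3 neurons (4 of 6 genes above the floor on every array), 3730 to 4435 for dentate granule neurons, 33695 to 38428 for inhibitory neurons and 18004 to 24497 for oligodendrocytes. Of the 3 choroid plexus markers, only Ttr, the transthyretin carrier, was highest at 4 hr, at 3217 where the remaining arrays read 140 to 196, and it took the sum of the 3 to 3689 from 473 to 658. Kl read 266 at 4 hr and 370 at 2 hr, and Folr1 read 206 at 4 hr and 278 at 1 hr. A list of cerebellar neuron markers, for a tissue that should be absent, summed to 5365 to 5600. Of its 4 genes with a probe set, 3 were above the floor on every array. These were Pvalb (3259 to 3678), also listed for inhibitory neurons, Calb1 (1481 to 1962) and Pcp2 (193 to 443). Marker signal above the floor therefore does not by itself show that a cell type was in the tissue. The Gapdh 3' to 5' signal ratio, which rises as RNA or labelled product shortens, was highest at 2 hr, at 7.56 against 4.84 to 6.25. The same ratio for Actb was 3.20 at 2 hr and 2.99 to 3.44 on the other arrays, highest at 1 hr.

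Gria2 and Gria1, the subunits of the commonest AMPA receptor of CA1 pyramidal neurons, gave bright signals, and the brightest Gria2 probe set was the steadiest of all the receptor probe sets. Probe set 92947_s_at of Gria2 read 10604, 9383, 9859 and 11404 at 1, 2, 4 and 6 hr, a mean of 10312 ± 884 (SD, n = 4 arrays, 1 at each hour and not replicates). It lay at percentile 99.0 of all probe sets by mean level. Its highest and lowest arrays were 1.22-fold apart, or 0.28 log2 units, where tested probe sets of similar level (within 0.5 log2 units) had a median range of 0.31. The suffixes s, f and r mark probe sets that the array's maker chose under relaxed rules, some of which can match related transcripts. An intensity depends on the probes as well as on the amount of RNA, so signals of different subunits are given side by side and not ranked as amounts.

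A stretch of 250 bases before the start of the Gria2 gene is shown because this gene is known to carry a site for the repressor REST. It was taken from RefSeq promoters of build GRCm38.p6, at chr3:80802836-80803085 on the minus strand, and capitals mark the only match to the core of the RE1 element (GCACC, any 2 bases, then GGACAG), which reads on the opposite strand, 170 to 158 bases before the start. RE1 is the element bound by REST, which silences neuronal genes in other cell types.
Gria2: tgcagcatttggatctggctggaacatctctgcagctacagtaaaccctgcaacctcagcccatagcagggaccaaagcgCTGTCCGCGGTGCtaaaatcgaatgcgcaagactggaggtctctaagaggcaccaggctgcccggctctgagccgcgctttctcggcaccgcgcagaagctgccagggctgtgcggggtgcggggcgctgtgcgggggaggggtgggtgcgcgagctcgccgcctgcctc
Searched on both strands, these letters occurred in 25 of 32851 promoter stretches of this length (0.0761%), and in 1 of the 5 that were matched to the listed genes (Gria2, Gria4, Grik2, Grik4 and Grik5). The match describes the sequence; binding was not measured.

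**Figure D1:**
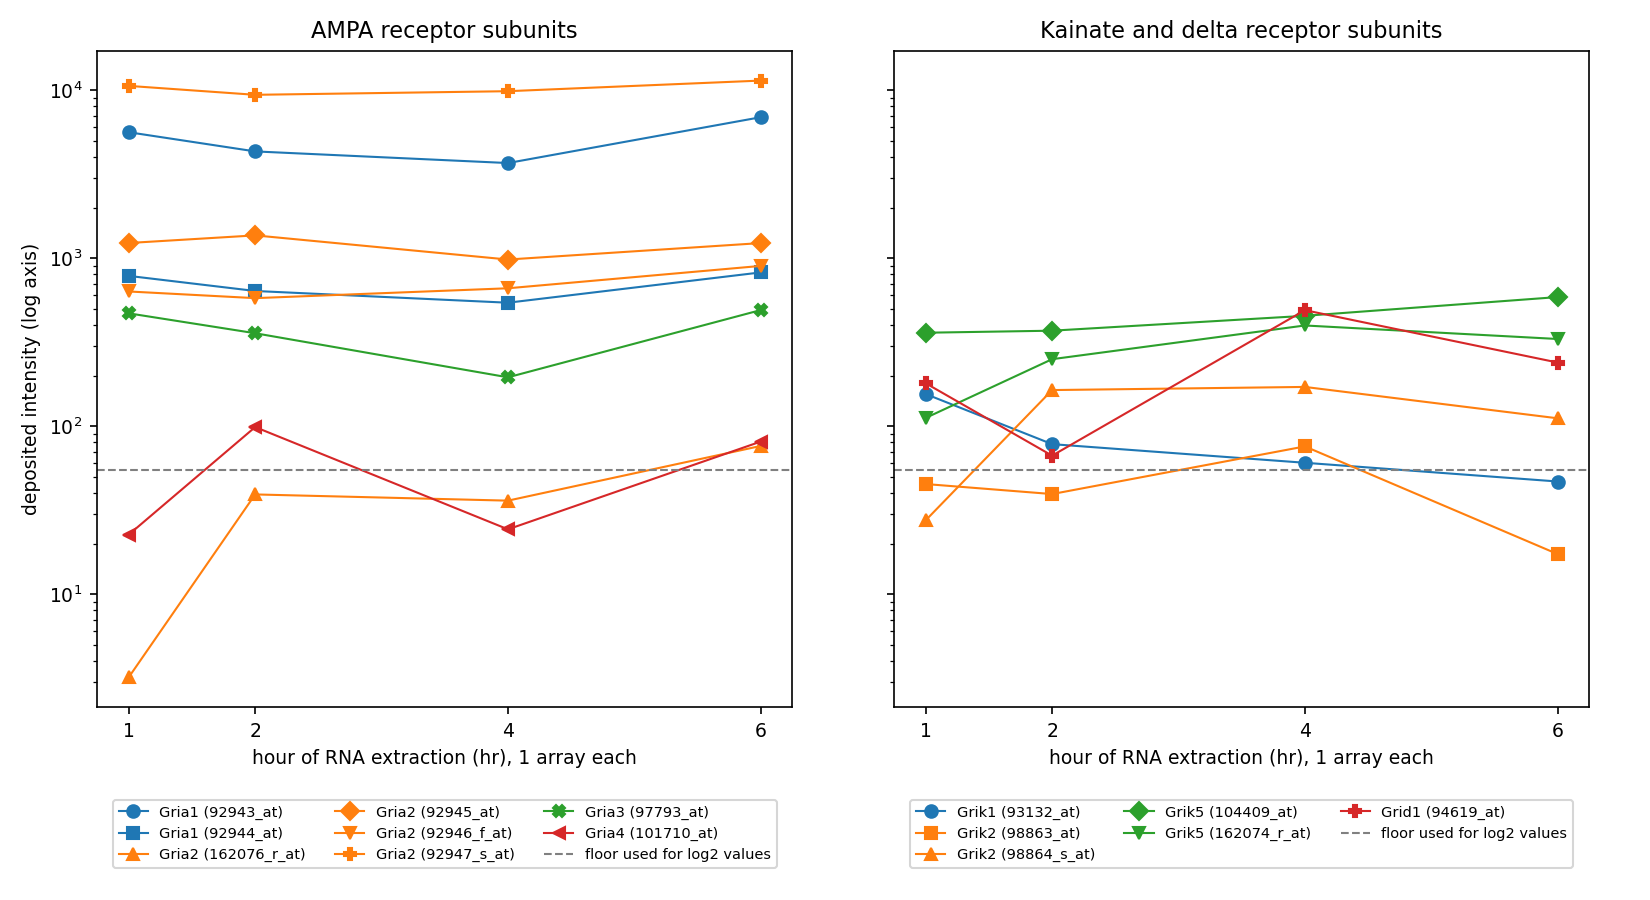
Deposited intensity of each subunit probe set (log axis) against the hour of RNA extraction in hr, 1 array each, for AMPA subunits on the left and kainate and delta subunits on the right; points are single arrays and the dashed line is the floor of 54.7. The brightest Gria2 probe set stayed between 9383 and 11404, while Grid1 ranged from 66.7 to 490.

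The other Gria2 probe sets did not follow the brightest one in full. Probe set 92945_at read 1231, 1366, 981 and 1230 at 1, 2, 4 and 6 hr, and was lowest at 4 hr and highest at 2 hr. Probe set 92946_f_at read 633, 578, 662 and 899, and was lowest at 2 hr and highest at 6 hr. The fourth, 162076_r_at, was under the floor on 3 of the 4 arrays and read 76.2 at 6 hr. Of the 6 pairs of arrays, 92946_f_at and 92947_s_at put 5 in the same order, whereas 92945_at shared the order of 92946_f_at in 1 and that of 92947_s_at in 2. With the arrays shifted to a common median, 92947_s_at was lowest at 4 hr and 92946_f_at at 1 hr, so their low array at 2 hr depends on the scaling. Their ranges were 0.48 log2 units for 92945_at and 0.64 for 92946_f_at, where similar probe sets had medians of 0.47 and 0.53.

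Gria1, the AMPA subunit that is delivered to synapses during potentiation, varied more than most probe sets of its brightness. Probe set 92943_at read 5618, 4319, 3682 and 6903 at 1, 2, 4 and 6 hr, a mean of 5130 ± 1430 (SD, n = 4 arrays). The 6 hr array was the highest and the 4 hr array the lowest, 1.87-fold apart. That range of 0.91 log2 units compares with a median of 0.37 and a 90th percentile of 0.67 for the 231 tested probe sets with a mean between 12 and 13 log2 units. The dimmer Gria1 probe set, 92944_at, read 784, 638, 543 and 822 and put the 4 arrays in exactly the same order, with a range of 0.60 log2 units against a median of 0.53. Such full agreement was seen in 70 of 1175 pairs of probe sets of one gene that passed the filter on level (5.96%).

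Gria3, an AMPA subunit that pairs mostly with Gria2, had that array order as well. Its single probe set, 97793_at, read 469, 357, 195 and 491 at 1, 2, 4 and 6 hr, a mean of 378 ± 135 (SD, n = 4 arrays). It was lowest at 4 hr and highest at 6 hr, a range of 1.33 log2 units where probe sets of similar level had a median of 0.71. The order of 6, 1, 2 and 4 hr from high to low, noticed after the values were seen, held for 307 of 7453 tested probe sets (4.12%), and 24.3% of tested probe sets were lowest at 4 hr. Relative to the brightest Gria2 probe set on the same array, Gria1 (92943_at) stood at log2 differences of -0.92, -1.12, -1.42 and -0.72 and Gria3 at -4.50, -4.72, -5.66 and -4.54. Against this probe set Gria1 and Gria3 were both lowest at 4 hr, with spans of 1.62-fold and 2.23-fold over the arrays and no replicate to test them. Gria3 was lowest at 4 hr against 92945_at and 92946_f_at of Gria2 as well, at log2 differences of -2.33 and -1.76. For Gria1 this depended on the Gria2 probe set: both Gria1 probe sets were lowest at 4 hr against 92946_f_at but at 2 hr against 92945_at, where 92943_at stood at 2.19, 1.66, 1.91 and 2.49. Quantile normalization or a shift to a common median left the order of arrays of Gria1 and Gria3 as it was, and put Gria3 more than 2-fold below each other array at 4 hr (gaps of 1.03 and 1.11 log2 units, against 0.87 on the deposited scale). The 4 hr array was also the one with high Ttr, and the summed inhibitory neuron markers were highest on it (38428). Of these markers Cck, Sst, Npy and Vip were highest at 4 hr, Gad1 (3638) and Dlx2 (83.1) were lowest there, and the others were neither. The summed CA1 markers (6960) lay within the range of the other arrays. Among them Dcn was lowest at 4 hr (2161) and Pou3f1 highest (613). The part of these in the Gria1 and Gria3 values was not tested, and in tissue RNA fewer cells of a type and less RNA per cell cannot be told apart.

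Gria4, the AMPA subunit known from fast-spiking interneurons, was near the floor. Probe set 101710_at read 98.7 at 2 hr and 80.9 at 6 hr and lay under the floor at 1 and 4 hr, where the deposited values were 22.6 and 24.3. Without detection calls it is unknown whether any of these readings exceeded background. The arrays with and without a Gria4 reading above the floor did not divide the early from the late hours.

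**Figure D2:**
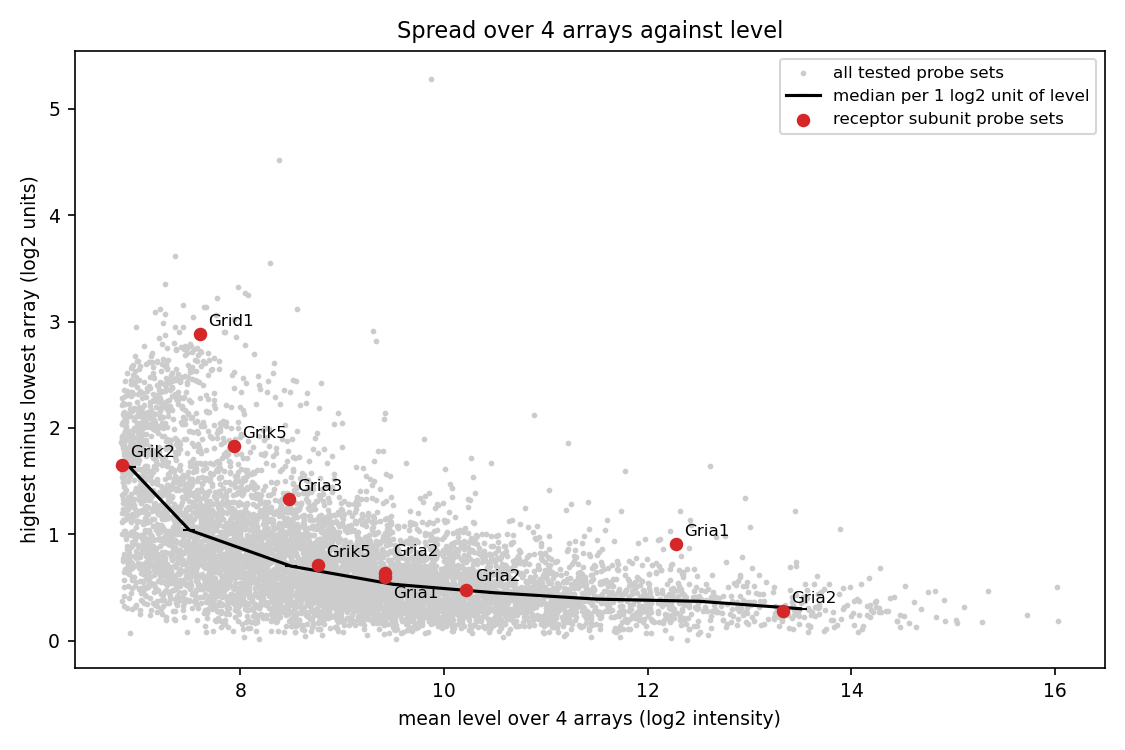
Range over the arrays (highest minus lowest array, log2 units) against mean level (log2 intensity) for 7453 tested probe sets in grey and the 10 subunit probe sets past the filter in red; the line joins the median range per log2 unit of level. Gria1 at a range of 0.91 and Grid1 at 2.88 stand above the line, and the brightest Gria2 probe set at 0.28 lies on it.

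Of the kainate receptor genes, Grik5 gave the clearest signal, and both its probe sets were lowest at 1 hr. Grik5 encodes a high-affinity subunit that joins Grik1 or Grik2 in heteromeric channels. Probe set 104409_at read 360, 370, 454 and 586 at 1, 2, 4 and 6 hr, a mean of 442 ± 105 (SD, n = 4 arrays), in rising order. Its 1 hr value lay only 0.04 log2 units under that at 2 hr. Probe set 162074_r_at read 112, 250, 397 and 330, and stood at least 2.24-fold below each of the other arrays at 1 hr. They agreed in 5 of 6 pairs of arrays, the exception being 4 and 6 hr, but differed in size, with ranges of 0.71 and 1.83 log2 units. Their slopes over the hours were 0.145 ± 0.061 and 0.285 ± 0.116 log2 units per hr (SE; adjusted p in limma = 0.972 and 0.965), so neither passed.

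The 250 bases before the start of Grik5 are shown for comparison with Gria2, from the same table and build, at chr7:25072370-25072619 on the minus strand. They hold no match to the RE1 core, and capitals mark both matches to the GC box GGGCGG, the sequence bound by Sp1.
Grik5: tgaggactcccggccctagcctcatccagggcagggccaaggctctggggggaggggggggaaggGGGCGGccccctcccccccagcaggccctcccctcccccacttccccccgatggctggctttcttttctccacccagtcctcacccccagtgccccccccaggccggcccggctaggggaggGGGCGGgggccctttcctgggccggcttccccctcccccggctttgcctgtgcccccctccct
The GC box letters, searched on both strands, occurred in 32.7% of the promoter stretches, and among the 5 matched to listed genes in those of Grik5 and Grik4. The Grik5 stretch was 75.2% G or C and that of Gria2 64.8%.

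Grik2, which encodes the principal kainate subunit of the hippocampus, gave low signals. Probe set 98864_s_at read 164, 171 and 111 at 2, 4 and 6 hr and was under the floor at 1 hr, at least 2.03-fold below each other array. That gap of 1.02 log2 units was 0.99 with the arrays shifted to a common median. With the floor at the 40th percentile Grik2 no longer counted as standing apart. With it at the 10th percentile the gap widened, since the deposited 1 hr value was 27.5. Grik2 then left the count because only probe sets past the level filter are counted. The other Grik2 probe set, 98863_at, was above the floor at 4 hr alone, at 75.7. Both were highest at 4 hr on the deposited scale (98864_s_at at 2 hr after quantile normalization or a shift to a common median), and their remaining arrays cannot be compared because those of 98863_at were at the floor. With a mean log2 level of 6.84, 98864_s_at lay just inside the filter of 6.83, and similar probe sets had a median range of 1.40 log2 units, against its 1.65.

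Grik1, a low-affinity kainate subunit found mainly in interneurons of this region, was the one member whose values were in strictly falling order. Probe set 93132_at read 155, 78.1 and 60.5 at 1, 2 and 4 hr and was under the floor at 6 hr. Its mean level of 6.31 log2 units was below the filter, so its slope comes from the fit with no filter, at -0.266 ± 0.095 log2 units per hr (SE; adjusted p in limma = 0.819), and it did not pass.

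Grid1, the delta subunit that binds cerebellins, ranged most widely among the members on the floored log2 scale. Probe set 94619_at read 180, 66.7, 490 and 239 at 1, 2, 4 and 6 hr, a mean of 244 ± 179 (SD, n = 4 arrays). It stood at least 2.05-fold above each other array at 4 hr and at least 2.70-fold below each other array at 2 hr, and these 2 arrays were 7.35-fold apart. The range of 2.88 log2 units exceeded the 90th percentile of 2.19 for the 1871 tested probe sets with a mean between 7 and 8 log2 units, where the median was 1.04. Standing apart both above and below was seen in 15 of 7453 tested probe sets (0.201%). Grid1 was highest on the array with high Ttr (4 hr) and lowest on the array with the lowest median intensity and the highest Gapdh, though not Actb, 3' to 5' ratio (2 hr); the part of these in its values was not tested. With a single probe set there is no second measurement of Grid1 on these arrays.

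The genes whose pattern over the 4 arrays was closest to that of Grid1, out of 5679 compared by the root mean square difference of centred log2 values, were Rpl22, Folr2 and Pitpnb, at 0.073, 0.176 and 0.190 log2 units. The Rpl22 probe set read 161 at 1 hr, 410 at 4 hr and 222 at 6 hr, with 2 hr under the floor. Only 9 genes lay within 0.3 of Grid1. For the brightest Gria2 probe set the closest were Slc25a39, Mrpl41 and Ddx5, at 0.014, 0.014 and 0.015 log2 units, and 3497 genes lay within 0.3. The difference is not scaled for range, which was 2.88 log2 units for Grid1 and 0.28 for this Gria2 probe set. The counts within 0.3 therefore do not compare the shapes of the patterns. With 4 arrays such likeness is a description of these arrays.

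Over the members as a group, 3 of the 10 probe sets past the filter stood apart on some array (Grid1, Grik2 and Grik5), that is, at least 2-fold over or under the nearest other array, where 7.53% of all tested probe sets did so. Over all 14 member probe sets the count was 3 too, where 9.56% of the 12422 probe sets other than controls stood apart. There was 1 such value above (Grid1 at 4 hr, background 1.36%) and 3 below (Grid1 at 2 hr, Grik2 and Grik5 at 1 hr, background 6.37%). All 3 probe sets had means under 8 log2 units, where the spread between arrays is widest. With the filter at the 60th percentile, which leaves these 3 out, the count was 0 of 7, and 1.65% of all tested probe sets stood apart. Without the 1 hr array it was 1 (Grid1), against 8.90% of all tested. By array, 6 of the 10 were highest at 6 hr (23.2% of all tested) and 4 were lowest at 4 hr (24.3%), counts that include the paired probe sets of Gria1 and Gria2.

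**Figure D3:**
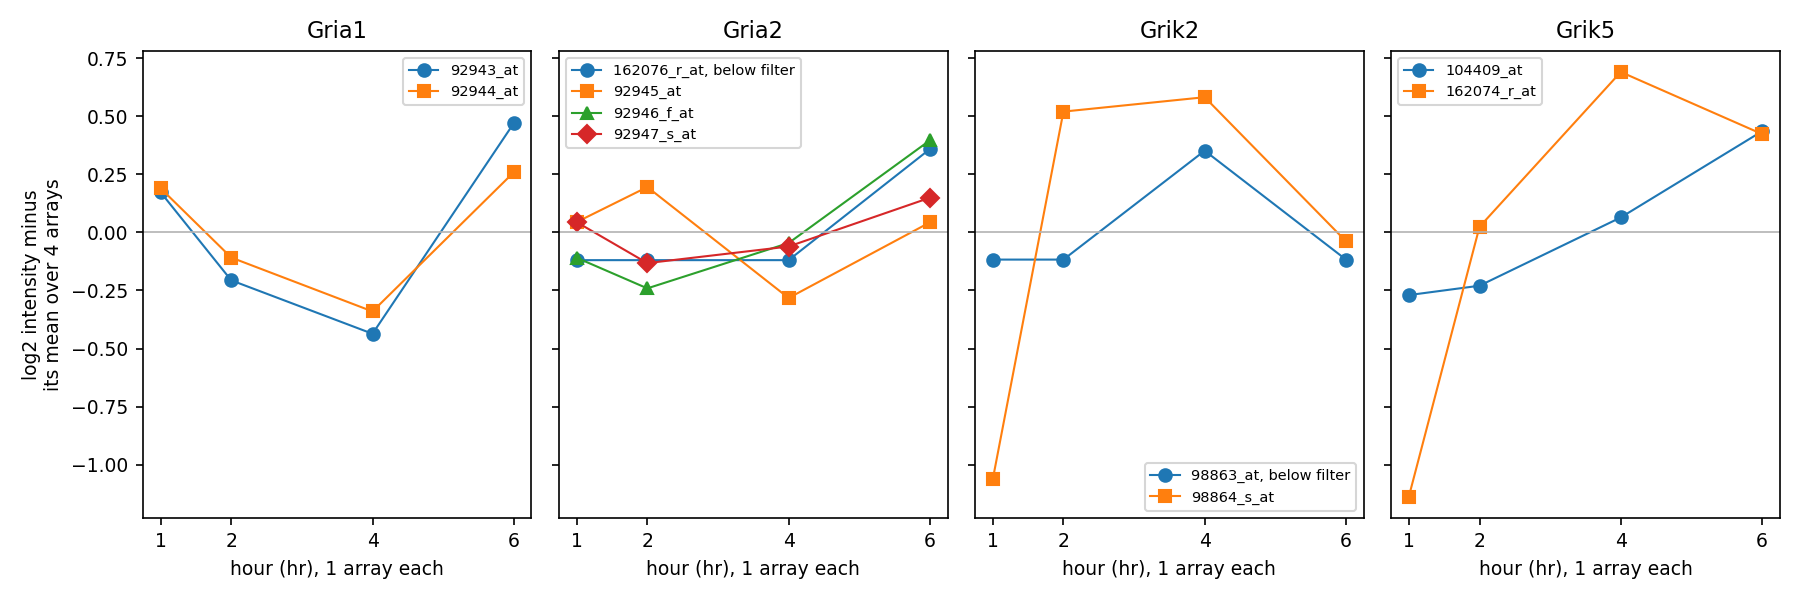
Log2 intensity of each probe set minus its mean over the arrays, against the hour of RNA extraction in hr (1 array each), for the 4 genes with more than 1 probe set; values under the floor are drawn at the floor. Both Gria1 lines have one shape, both Grik5 lines are lowest at 1 hr, and 92945_at of Gria2 is lowest at 4 hr where 92946_f_at and 92947_s_at are not.

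Agreement between probe sets of the same subunit varied with the gene. Over the 5 pairs with both probe sets past the filter, 3.80 of the 6 pairs of arrays were put in the same order on average, where the 1175 such pairs of all genes averaged 3.22. In each of the other 4 pairs, those with 162076_r_at of Gria2 and that of Grik2, 3 of the 6 pairs of arrays were tied at the floor, so these are not averaged. The SD over arrays of the log2 difference between 2 probe sets was 0.15 for Gria1, 0.18 to 0.36 for the Gria2 probe sets past the filter and 0.63 for Grik5, where the median over all genes was 0.44. That median is not matched for level, and the spread between arrays is narrower at high levels, where the Gria1 and Gria2 probe sets lie. Gria1 was the only one of these 4 genes whose probe sets gave the same full order of arrays.

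No subunit followed a straight line over the hours past the threshold. With limma and Benjamini-Hochberg adjustment over the whole table, 0 of the 14 probe sets passed, and 0 of the 10 past the filter had an unadjusted p under 0.05, where 0 of 7453 (0.0%) and 382 (5.13%) did so in the whole table. Ordinary least squares gave 0 adjusted and 333 unadjusted over the table, and limma's robust prior that follows intensity gave 0 and 330, each with 1 Grik5 probe set among the unadjusted. The smallest member p was 0.0553, that of Grik5 162074_r_at (limma adjusted p = 0.965). Over all 14 member probe sets 11 slopes were above 0 and their median was 0.045 log2 units per hr. Past the filter 8 of 10 were above 0 (median 0.083), and over all tested probe sets 3792 of 7453 were (median 0.002). The slope of the brighter Gria1 probe set was 0.057 ± 0.097 and that of Grid1 0.271 ± 0.213 (SE, limma adjusted p = 1.0 for both), each with an SE near or above the slope.

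**Figure D4:**
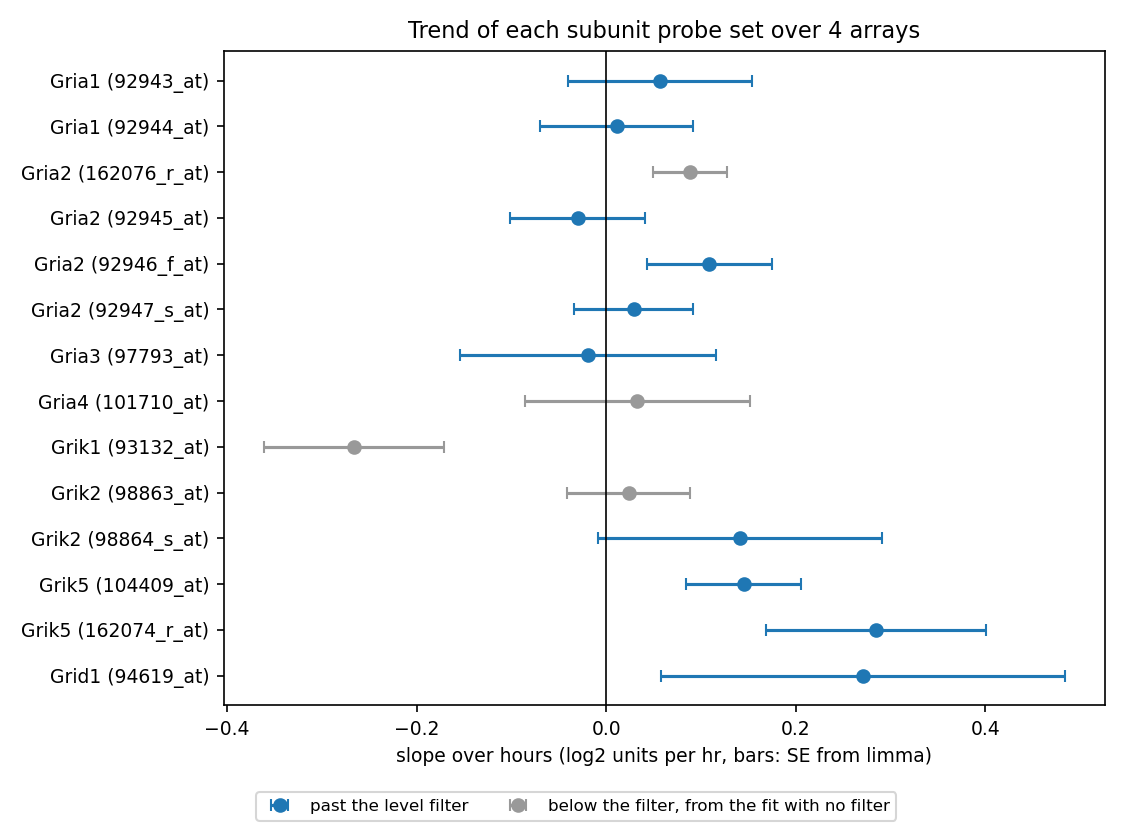
Slope over the hours (log2 units per hr) with its SE from limma for each of the 14 subunit probe sets; blue points passed the level filter and grey points come from the fit with no filter. The values run from -0.266 for Grik1 to 0.285 for Grik5 162074_r_at, and none passed the test.

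Other genes of these receptor complexes were drawn from 5 lists with 49 genes, of which 18 had a probe set and 16 were tested through their brightest one. None of the 16 passed limma's test over all probe sets, 0 had an unadjusted p under 0.05, and 8 slopes lay above 0 and 8 below. Their median slope was -0.002 log2 units per hr. Of the auxiliary subunits that escort AMPA receptors 2 of 11 had a probe set, and 0 of these 2 passed. Cnih2, a cornichon protein that slows channel closing, read 4504, 1937, 3685 and 4278 at 1, 2, 4 and 6 hr, lowest at 2 hr. Cacng2, the transmembrane regulator called stargazin, read 649, 409, 612 and 566 and was lowest at 2 hr too, on the array where the 3' to 5' ratio was highest for Gapdh (7.56) and not for Actb (3.20). Cbln1, the cerebellin that links delta receptors to neurexins, was the 1 of 8 kainate and delta receptor partners with a probe set. It read 278, 368, 149 and 411, lowest at 4 hr, as were 24.3% of all tested probe sets, and highest at 6 hr. Grid1 was highest at 4 hr and lowest at 2 hr.

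Among 19 scaffold and trafficking genes 9 had a probe set, 8 were tested and 0 passed, with 3 slopes above 0 and 5 below. Nsf, the ATPase that binds the Gria2 tail and keeps AMPA receptors at the membrane, read 11628, 7009, 4600 and 10702. It was lowest at 4 hr, as were Gria1, Gria3 and 24.3% of all tested probe sets, with a range of 1.34 log2 units. Its order from high to low was 1, 6, 2 and 4 hr, which is not that of Gria1 and Gria3. Dlg1, a scaffold that binds Gria1, averaged 1118 ± 143 (SD, n = 4 arrays) and had the smallest slope of its list, -0.076 ± 0.062 log2 units per hr, and Homer1, a postsynaptic scaffold, had the largest at 0.106 ± 0.091 (SE, limma adjusted p = 1.0 for both). Of the editing enzymes Adarb1, which edits the Gria2 transcript at the site that sets calcium entry, averaged 1175 ± 202 and Adar 165 ± 41.2 (SD, n = 4 arrays), and 0 of 2 passed. Of the other ionotropic receptor genes 4 of 8 had a probe set, 3 were tested and 0 passed. Grin2a, an NMDA receptor subunit, was under the floor at 2 hr and read 208 to 269 otherwise, and Grin2b, its partner in the forebrain, was under the floor at 6 hr and read 121 to 214 otherwise. Grin2c averaged 709 ± 114 (SD, n = 4 arrays) and had the highest mean of that list.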

How the data were processed

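The authors deposited a linear intensity for each of 12488 probe sets on 4 arrays. The method that summarised the probes is not stated in these sources. The mean after trimming the extremes was the same on every array, so the deposited intensity values had been scaled, a reading from the values. Precision is limited by the number of arrays. Probe sets were named by the platform's annotation where it gave 1 symbol (10855; 396 had several and 1237 none), and the 14 member probe sets matched RefSeq symbols by Entrez identifier. After leaving out 66 control probe sets, values under 54.7 were set to that floor, log2 was taken, and the 7453 probe sets with a mean log2 above 6.83 (40th percentile) were fitted with a line over hours (limma 3.58.1, R 4.3.3; 2 residual degrees of freedom; two-sided, Benjamini-Hochberg, threshold 0.05). The fit was also run on values simulated from its own variance model, with normal noise and no floor. That run checks the code, and its outcome is not used as support here. Any pair of arrays shared 7 to 16 identical values. The members, lists and rules were chosen with earlier results of these data known. Named from each list were the genes with the largest and smallest slope and the 2 of highest mean; Grin2d, Dlg3, Dlg4 and the other list genes are given by counts. All members were named. Alternatives changed the normalization, floor, filter, trend model, fold and arrays used.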

Additional observations from a re-analysis of the deposited data

How the results depend on the processing

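The count of probe sets past the trend threshold stayed at 0 for all genes, for the members and for the other receptor genes under every alternative run. The count of member probe sets past the filter that stood apart was 3 (Grid1, Grik2, Grik5). It was 4 with quantile normalization, which added Gria3, where 7.65% of all tested probe sets stood apart. With a common median it was 3 (7.51% of all tested), and Gria3 took the place of Grik2. With the floor at the 10th or 40th percentile it was 2 (Grid1, Grik5), against 7.41% and 3.65% of all tested. It was 0 with the filter at the 60th percentile (1.65%), and 1 to 3 without 1 array (at least 8.9%). At 1.5-fold it was 4, but the share of all tested probe sets at that fold is not given here. The shift to a common median raised the 2 hr array by 0.17 log2 units and changed the others by -0.03 to -0.07. With all arrays kept, 65 alternative member slopes differed in value from those reported, and 6 of them changed sign; the other filters and variance models leave a slope as it is by construction. For Gria1 92944_at (0.011) they were -0.002 with a common median, -0.031 over log2 of hours and -0.082 for 4 and 6 hr against 1 and 2 hr. The last contrast gave -0.143 for Gria4 (0.033). Grik2 98863_at (0.024) gave -0.174 with the floor at the 10th percentile and Grik2 98864_s_at (0.141) gave -0.011 with it at the 40th. The floor sets how low their lowest values can count. Those were deposited as 17.3 at 6 hr for 98863_at and 27.5 at 1 hr for 98864_s_at. Without 1 array, 9 of 53 slopes changed sign. Those ranges were -0.191 to 0.169 for Gria1 92943_at, -0.168 to 0.092 for 92944_at, -0.025 to 0.070 for Gria2 92947_s_at, -0.424 to 0.115 for Gria3, -0.072 to 0.085 for Gria4 and -0.140 to 0.477 for Grik2 98864_s_at. Slopes of probe sets at the floor on all arrays have no value. No paired analysis was possible because each hour has 1 array. Signal near the floor limits Gria4, Grik1, Grik2 and the 2 hr reading of Grid1.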
